A study of Mus musculus with 6 samples.

Results

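The genes followed here were 10 members of the epidermal growth factor (EGF) family. They were the ligands Egf, Areg, Ereg, Hbegf, Tgfa, Btc and Nrg1 and the receptors Egfr, Erbb2 and Erbb3, chosen by name, when earlier results of these data were known. All 10 had a row among the 24077 genes of the single-cell count tables and among the 30828 genes of the spatial count tables. The samples were uteri of 12-month-old CD-1 mice injected under the skin on neonatal days 1 to 5 with the vehicle corn oil (CO) or with diethylstilbestrol (DES), a synthetic estrogen given at 1 mg/kg/day. CO mice were taken in estrus, and DES mice were in persistent estrus. Single-cell RNA came from 1 library per treatment, pooled from 2 CO mice and from 4 DES mice. Spatial RNA came from 2 CO sections (CO A and CO B) and 2 DES sections (DES A and DES B), each cut from 1 mouse. The DES blocks were picked because they held adenocarcinoma, CO B carried a tissue fold, and DES B was described by the study as limited in its clusters.

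EGF family ligands are made as membrane proteins, and most are cut free by proteases of the ADAM family. Areg, Hbegf, Tgfa, Btc, Egf and Ereg bind the receptor Egfr, Hbegf, Btc and Ereg also bind Erbb4, and Nrg1 binds Erbb3 and Erbb4. Erbb2 has no ligand of its own and pairs with the other receptors, while Erbb3 has little kinase activity and signals through its partners. In the uterus of rodents these ligands are known as local mediators of estrogen action on the epithelium, and Hbegf and Areg are known for their part around implantation.

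Because each treatment had a single library, the CO and DES libraries were compared by their levels and not by a test, and library and treatment cannot be told apart in the single-cell data. A level is given as CPM, the unique molecular identifiers (UMIs) of a gene per 1000000 UMIs summed over the cells or spots of a group, with an exact Poisson 95% interval in brackets. These intervals cover counting error only, and because counts came from one end of the transcript, levels were compared within a gene and not between genes. The CO library held 32387 cells and 353460067 UMIs and the DES library 16312 cells and 288919190 UMIs, and the 4 sections held 9117099 to 12506177 UMIs in 1357 to 1834 spots. The authors had named a cell type for 12253 CO cells and 9701 DES cells, and 180 cell barcodes were shared by both libraries. Epithelial cells lying in the authors' 15 CO or 16 DES epithelial clusters are called non-basal here (2583 CO and 4608 DES cells, of which 4 DES cells met the basal rule). Basal cells were the 479 DES cells in which Krt14 and Trp63 each had more than 1 UMI, and 168 further DES epithelial cells lay outside the clusters and below that rule. Of the other labels, cells named mesothelial carried the stromal genes Dcn (17675 CPM against 8859 in CO stromal cells) and Lum but little Dpt (1.88 CPM) or Pdgfra (3.13 CPM), beside the mesothelial genes Msln (660 CPM) and Upk3b (1005 CPM), which stood at 16.3 and 26.8 CPM in stromal cells. Cells named lymphocytes carried the myeloid gene Lyz2 at 3121 CPM in CO and 8351 CPM in DES, beside Cd79a (374 and 138 CPM) and Cd3e (81.4 and 107 CPM).

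Areg, Ereg, Btc and the related gene Epgn lay side by side on chromosome 5 (GRCm38), within 375531 bases from the start of Epgn to the end of Btc, with 45952 bases between Ereg and Areg and 208828 between Areg and Btc. Tgfa lay on chromosome 6 (86195223 to 86275719) and Egfr on chromosome 11 (16752203 to 16918158), both on the plus strand. RefSeq start sites of GRCm38.p6 gave promoter windows for 6 of the 10 members, and the 250 bases upstream of the start of Areg, Tgfa and Egfr are printed because Areg and Tgfa differed most between treatments in cells and in sections, and Egfr is their receptor. Capitals mark the cAMP response element TGACGTCA, the GC box GGGCGG (on either strand, so that CCGCCC is the same box reversed) and the TATA box TATAAA.
Areg, chr5:91139349-91139598, plus strand: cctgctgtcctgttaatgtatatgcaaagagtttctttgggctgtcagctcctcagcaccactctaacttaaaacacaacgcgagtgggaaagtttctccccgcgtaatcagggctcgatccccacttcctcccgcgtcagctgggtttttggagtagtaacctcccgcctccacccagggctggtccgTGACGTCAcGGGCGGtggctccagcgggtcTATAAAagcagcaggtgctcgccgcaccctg
Tgfa, chr6:86194972-86195221, plus strand: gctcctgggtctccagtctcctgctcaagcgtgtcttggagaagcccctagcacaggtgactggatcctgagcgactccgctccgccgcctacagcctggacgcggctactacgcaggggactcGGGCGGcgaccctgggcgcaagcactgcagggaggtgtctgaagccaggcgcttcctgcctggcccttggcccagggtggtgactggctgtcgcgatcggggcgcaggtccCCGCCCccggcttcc
Egfr, chr11:16751953-16752202, plus strand: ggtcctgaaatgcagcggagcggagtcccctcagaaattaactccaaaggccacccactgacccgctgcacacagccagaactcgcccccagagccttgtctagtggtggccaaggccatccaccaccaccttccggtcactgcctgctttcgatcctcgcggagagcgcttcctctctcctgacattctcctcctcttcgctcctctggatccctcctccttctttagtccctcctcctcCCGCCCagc

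The Areg window held 1 cAMP response element, 1 GC box and 1 TATA box, while the Tgfa and Egfr windows held GC boxes and no TATA box. GC content was 57.2% for Areg, 69.2% for Tgfa and 60.8% for Egfr, beside a median of 52.4% over all windows. Of 32851 windows of the same length, 1.55% held the cAMP response element, 12.4% the TATA box and 32.7% the GC box on either strand. The letters of a full palindromic estrogen response element (in 0.0639% of all windows) and of an AP-1 site (TGANTCA, in 6.75%) were in none of the 7 windows of the 6 members. A match is a description of the letters, and the binding of a factor was not measured.

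In non-basal epithelial cells, the ligands Hbegf and Areg were far lower in DES than in CO cells, while Tgfa, Btc and the receptors Egfr, Erbb2 and Erbb3 lay within 2-fold. Among the 9 members with at least 50 UMIs over both libraries, 1 was at least 2-fold higher in DES, 3 were at least 2-fold lower, and 5 lay within 2-fold. Their median ratio of DES to CO was 1.03, beside 1.10 over all 14607 genes with as many UMIs. Of those genes, 15.8% were at least 2-fold higher and 10.9% at least 2-fold lower in DES.

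Hbegf, the membrane-anchored ligand that also binds heparin, stood at 226 CPM [223, 229] in CO non-basal epithelial cells and at 18.6 CPM [17.9, 19.2] in DES cells. The CO level was thus 12.2-fold the DES level [11.7, 12.6]. After each cell was thinned to 3000 UMIs, 31.2% of 2562 CO cells had a UMI of Hbegf (exact Clopper-Pearson 95% interval 29.4 to 33.1) against 5.22% of 4559 DES cells (4.59 to 5.91). CO epithelial cells carried 90.1% of all Hbegf UMIs in typed CO cells, spread over many cells, with 543 cells at 10 UMIs or more and 218 UMIs in the highest cell. In DES the highest group was the 168 cells outside the clusters, at 283 CPM [262, 304], which held 16.3% of the library's Hbegf UMIs in typed cells. Of these cells 84 and 48 lay in clusters 8 and 11 of the study's integrated epithelium, which the study named basal, and there the level was 69.8 CPM [57.8, 83.6], beside 52.4 CPM [47.9, 57.2] in the 479 basal cells. Another 32 lay in integrated cluster 18, and they held 605 Hbegf UMIs, at 722 CPM [665, 781]. The level of the 168 cells leaned on few of them, since 65 had a UMI of Hbegf, 1 had 83 and the top 10 held 61.9%, and without these 10 cells it was 132 CPM.

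Areg, the ligand amphiregulin, was at 4.29 CPM [3.84, 4.77] in CO and 0.0549 CPM [0.0251, 0.104] in DES non-basal epithelial cells, from 338 and 9 UMIs. The CO level was 78.2-fold the DES level [40.7, 172]. Both levels were low beside those of Areg in immune cells, where CO myeloid cells stood at 105 CPM [81.4, 134] and CO lymphocytes at 47.2 CPM [38.6, 57.0]. The immune UMIs came from few cells, with 65 UMIs in 5 of 67 CO myeloid cells, 49 of them in 1 cell, and 106 UMIs in 22 of 423 CO lymphocytes, of which the top 10 cells held 84.0%. Ereg, the neighboring gene for epiregulin, had 10 UMIs in CO and none in DES non-basal epithelial cells, too few for a ratio. The CO UMIs lay in 5 cells, and 1 cell held 5 of the UMIs. The Ereg level was 0.127 CPM [0.0609, 0.233] in CO, or 0.0635 CPM without that cell, and 0 CPM [0, 0.0225] in DES.

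Egf itself was the member at least 2-fold higher in DES, at 0.495 CPM in CO and 1.52 CPM in DES cells, a ratio of 3.08 [2.19, 4.43] from 39 and 250 UMIs. Nrg1, one of the 3 lower members, was at a trace level in both, 0.393 and 0.140 CPM, from 31 and 23 UMIs. The CO value was 0.179% of the level in CO stromal cells, where 6 stromal markers stood at 0.368% to 5.49% of theirs, and since the DES library held almost no stromal cells, expression by epithelial cells and free RNA from stroma cannot be told apart. With every annotated epithelial cell included, basal cells among them, the Nrg1 ratio of DES to CO turned from 0.356 to 3.95. Tgfa stood at 13.1 CPM in CO and 10.7 CPM in DES, and Btc (betacellulin) at 7.04 and 10.5 CPM, ratios of 0.817 [0.756, 0.884] and 1.49 [1.35, 1.64]. Neither passed the 2-fold mark, though neither counting interval held 1.

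The receptors held nearly the same level in both libraries. Egfr stood at 10.8 CPM [10.1, 11.5] in CO and 11.1 CPM [10.6, 11.7] in DES non-basal epithelial cells. Erbb2, the receptor without a ligand, stood at 36.7 and 41.7 CPM, a ratio of CO to DES of 0.880 [0.842, 0.919]. Erbb3, which binds neuregulins, stood at 48.3 and 51.3 CPM, a ratio of CO to DES of 0.942 [0.906, 0.978]. The receptor Erbb4, no member but read from the list of other family genes, was at 3.16 CPM in CO and 0.591 CPM in DES, 5.34-fold lower in DES [4.21, 6.83], and in CO it stood at 14.8 CPM in glandular and 1.76 CPM in luminal clusters. Nrg4, a ligand of Erbb4 from that list, was higher in DES cells, at 14.3 against 3.19 CPM, unlike in the sections described below.

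**Figure D1:**
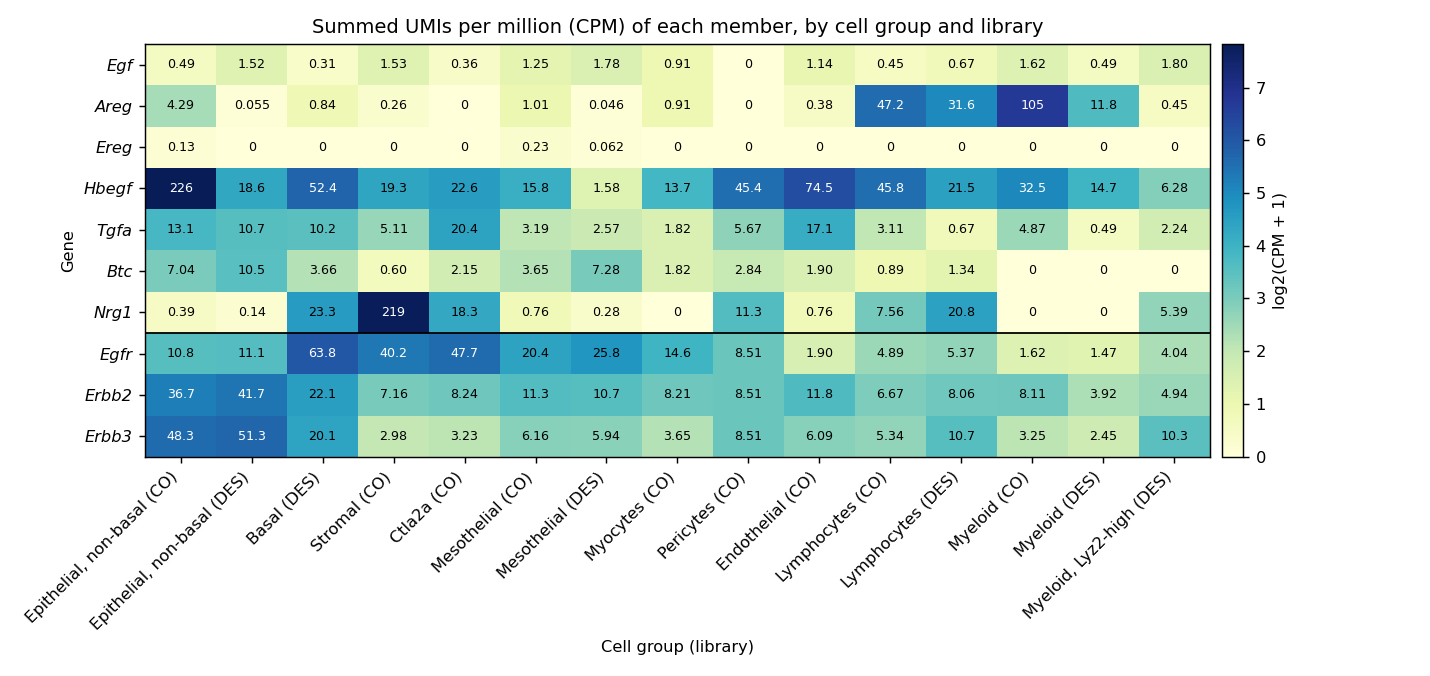
Heat map of the level of each of the 10 members (rows) in groups of cell type and library with at least 50 cells (columns), colored by log2(CPM + 1). The DES epithelial cells outside the clusters and the cells without a cell type are not shown. Hbegf is darkest in CO non-basal epithelium (226 CPM), Nrg1 in CO stromal cells (219 CPM), and Erbb2 and Erbb3 in the non-basal epithelial columns of both libraries.

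Other cell types divided the ligands and receptors between them. Nrg1, the neuregulin that binds Erbb3, stood at 219 CPM [211, 228] in CO stromal cells, which held 93.9% of the Nrg1 UMIs in typed CO cells. After thinning to 3000 UMIs, 42.7% of CO stromal cells had a UMI of Nrg1 (40.0 to 45.5), against 0.0781% of CO non-basal epithelial cells. The DES library had too few stromal cells for a level. In it, basal cells held 223 of the 335 Nrg1 UMIs in typed cells, 66.6%. By level, DES basal cells stood at 23.3 CPM [20.4, 26.6] and DES lymphocytes, from 31 UMIs, at 20.8 CPM [14.1, 29.5], and the intervals overlapped.

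Egfr was highest in DES basal cells at 63.8 CPM [58.9, 69.1], followed by the CO cells named Ctla2a at 47.7 CPM [39.9, 56.5], the DES epithelial cells outside the clusters at 45.2 CPM [37.4, 54.2] and CO stromal cells at 40.2 CPM [36.7, 44.0]. The intervals of the last 3 overlapped, while that of the basal cells lay above them. Mesothelial cells followed at 20.4 CPM in CO and 25.8 CPM in DES, and endothelial cells were at 1.90 CPM [0.618, 4.44]. Erbb2 and Erbb3 were ordered otherwise, with non-basal epithelial cells of both libraries above basal cells (22.1 and 20.1 CPM). DES cells outside the clusters stood at 34.7 CPM [27.9, 42.7] for Erbb2, an interval that held the levels of both non-basal groups, and at 29.2 CPM for Erbb3. Tgfa was at 20.4 CPM [15.5, 26.5] in Ctla2a cells, 17.1 CPM [12.5, 22.9] in endothelial cells and 13.1 CPM [12.3, 13.9] in CO epithelium, of which neighbors in that order overlapped.

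Hbegf outside the CO epithelium had to be read beside free RNA, since droplets also hold RNA released from broken cells. In CO lymphocytes, stromal cells, pericytes, myeloid cells, myocytes, Ctla2a cells and mesothelial cells, the Hbegf level was 6.05% to 20.3% of that of CO epithelial cells. The 7 epithelial markers had medians of 7.71% to 19.0% in these groups, and in each group at least 1 marker stood above Hbegf, with a highest marker of 86.0% in mesothelial cells. Of the 103 Hbegf UMIs of CO lymphocytes, spread over 75 cells, 17 were in 1 cell and 35.0% in the top 10 cells. The part of free RNA in these levels was not tested. Endothelial cells were above every marker, at 74.5 CPM or 33.0% of the epithelial level beside a marker median of 13.3% and a highest marker of 15.9%. In DES, Hbegf in lymphocytes and myeloid cells stood at 116% and 79.2% of the DES epithelial level beside marker medians of 12.9% and 7.66%. The lymphocyte value rested on 32 UMIs in 13 cells, with 13 of the UMIs in 1 cell, and without that cell the level went from 21.5 to 12.8 CPM.

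Mesothelial cells were lower in DES for the same pair of ligands, Hbegf at 15.8 and 1.58 CPM and Areg at 1.01 and 0.0464 CPM, 9.99-fold [8.16, 12.3] and 21.8-fold [7.20, 108] in favor of CO, where Areg had 3 UMIs in DES. With Nrg1 (0.758 and 0.279 CPM), 3 of the 9 members with enough UMIs were at least 2-fold lower and none higher, where 5.21% of 14317 genes were lower and 4.96% higher. Btc went the other way, from 3.65 CPM in CO to 7.28 CPM in DES, just under the 2-fold mark. Nrg1 in CO mesothelial cells was 0.346% of its CO stromal level, under each of the 6 stromal markers there (0.708% for Dpt, the lowest). The Nrg1 ratio thus cannot be told apart from free RNA of the stroma, which the DES library almost lacked. The CO mesothelial level of Hbegf was 6.98% of the epithelial level beside a marker median of 7.71%, and the part of free RNA in this difference was not tested. Of the 84 Areg UMIs in CO mesothelial cells, 18 lay in 1 cell and 41.7% in the top 10 cells. The part of free RNA in the Areg difference was not tested either. In lymphocytes the ratio of DES to CO was 0.469 for Hbegf and 0.669 for Areg, where 3.55% of 6928 genes were at least 2-fold lower and 5.08% higher. In myeloid cells it was 0.112 for Areg and 0.453 for Hbegf, where 11.8% of 5459 genes were lower and 4.51% higher. The cells of that label also differed in other genes, with Dcn at 4283 and 212 CPM, Lum at 602 and 44.6 CPM, the mesothelial gene Upk3b at 222 and 12.7 CPM and the macrophage gene C1qa at 4317 and 8780 CPM in CO and DES, and the part of this in the ratios was not tested. The Areg ratios leaned on single cells, since 1 cell held 49 UMIs in either CO group. Without the highest cell of each group they were 0.927 in lymphocytes and 0.280 [0.129, 0.606] in myeloid cells, and CO myeloid cells then stood at 26.4 CPM. For Hbegf, the CO level of both types was under that of the highest epithelial marker while the DES level was above every marker, and the part of free RNA in these ratios was not tested. Among cells without a cell type, 4 of the 9 members with at least 50 UMIs were higher in DES with counting intervals apart and 3 were lower, where 36.1% of 15404 genes were higher and 29.5% lower.

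DES basal cells, of which the CO library held 0 by the same rule, differed from DES non-basal epithelial cells in the choice of ligand and receptor. The values are a description of cells from 1 library. Nrg1 was 166-fold higher in basal cells [108, 268], at 23.3 against 0.140 CPM, and the related ligands Epgn and Nrg2 were 83.4-fold and 39.2-fold higher, at 7.12 and 6.70 CPM. Egfr was 5.73-fold higher [5.22, 6.28], Areg 15.3-fold higher [5.12, 44.6] from 8 UMIs, of which 6 lay in 1 cell (4.92 [0.498, 25.8] without the highest cell of each group), and Hbegf 2.82-fold higher, from 501 UMIs. With the 132 outside cells of integrated clusters 8 and 11 added the Hbegf ratio was 2.96 [2.71, 3.23], and with all 168 outside cells 5.45 [5.09, 5.82], while the other members with a ratio stayed within their intervals. Erbb2, Erbb3, Btc and Egf were lower, at ratios of 0.529, 0.392, 0.350 and 0.206 (the last from 3 UMIs, with an interval of 0.0422 to 0.609), and Tgfa lay near 1, at 0.948 [0.765, 1.16]. Basal cells also carried more of the early response genes Fos, at a ratio of 9.07, Egr1, at 15.2, and Phlda1, at 25.5. Of the same list of MAP kinase targets, Dusp6 (1.24) and Etv5 (1.31 [0.906, 1.84]) lay nearer to 1, and Dusp4 was at 0.475 [0.172, 1.05]. The share of all genes with such ratios was not counted.

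Within the epithelium, Hbegf varied between clusters far more than the receptors did. In CO it ran from 30.6 CPM in cluster 2 to 771 CPM in cluster 7, with a median of 115 CPM over 15 clusters. In DES it ran from 8.29 CPM in cluster 0 to 102 CPM in cluster 9, with a median of 14.8 CPM over 16 clusters. The other 15 DES clusters reached 23.8 CPM and lay below every CO cluster, and cluster 9 lay among the CO clusters. Erbb2 ran from 24.7 to 47.4 CPM and Erbb3 from 31.4 to 74.0 CPM in CO. Egfr ran from 2.25 CPM in cluster 13, named mature glandular by the study, to 15.6 CPM in cluster 5. Areg was highest in the same CO cluster 7, at 11.5 CPM, and stood at 0.574 CPM in glandular against 4.84 CPM in luminal clusters. Btc was highest in the luminal cluster 9, at 12.2 CPM, and lowest in the glandular cluster 14, at 2.20 CPM, while Tgfa was highest in the glandular cluster 14 at 25.3 CPM. In the DES cluster 5, which the study marked by Olfm4 and proposed as cancer cells, Tgfa was at its lowest DES level, 6.54 CPM.

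Clusters with more Hbegf also had more of the genes that respond early to growth factors and to cell stress. Over the 15 CO clusters the correlation of log levels was 0.89 with Fos, 0.92 with Egr1, 0.89 with Fosl1, 0.88 with Phlda1 and 0.92 with Errfi1, while with Dusp6, a phosphatase that MAP kinase induces, it was 0.14. Over the 16 DES clusters it was 0.76 with Fos, 0.78 with Egr1 and 0.22 with Dusp6. The clusters of a library share its mice, dissociation and free RNA, and with the median UMIs per cell the correlations were 0.25 in CO and 0.11 in DES. DES cluster 9, the highest for Hbegf, had Fos at 2519 CPM beside a median of 60.3 CPM over the DES clusters, and Egr1 at 544 CPM. For Areg the correlation in CO was 0.82 with Dusp6 and 0.19 with Fos, and in DES, where its levels rest on 9 UMIs, 0.19 with Dusp6 and 0.83 with Fos.

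**Figure D2:**
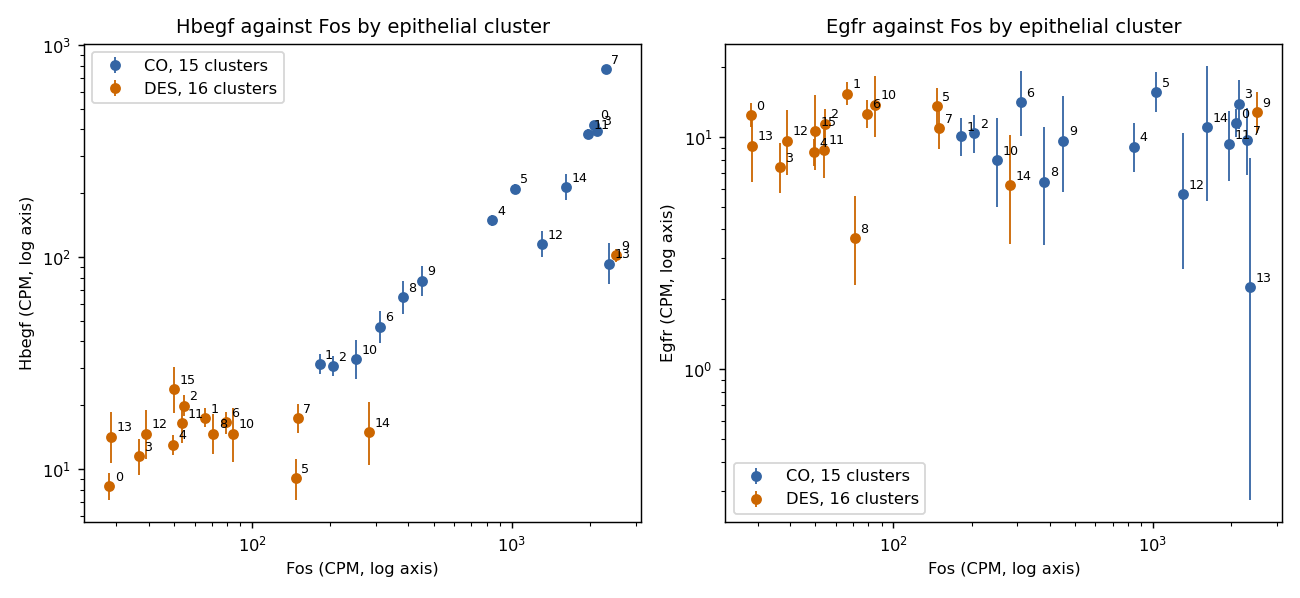
Level of Hbegf and of Egfr against that of Fos in each epithelial cluster, on log axes in CPM, with CO and DES clusters in separate colors. Hbegf is highest in CO cluster 7 (771 CPM) and, among DES clusters, in cluster 9 (102 CPM), and CO and DES clusters overlap for Egfr (2.25 to 15.6 and 3.67 to 15.4 CPM).

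The pathway lists, also chosen with earlier results known, gave the setting of this difference in non-basal epithelial cells. Of 12 target genes of the MAP kinase branch, 11 were at least 2-fold lower in DES and none higher, with a median ratio of 0.141, beside 10.9% lower, 15.8% higher and a median of 1.10 over all genes. Fos (1133 to 183 CPM) and Egr1 (424 to 36.6 CPM) are immediate early transcription factors, Ier3 went from 1067 to 73.4 CPM, Phlda1 from 453 to 26.6 CPM, and Dusp6 and Dusp5, phosphatases that act on MAP kinases, from 150 to 27.9 and from 65.9 to 8.44 CPM. Myc, at 19.6 and 34.1 CPM, lay within 2-fold. Of 11 feedback inhibitors, Errfi1 (174 to 62.5 CPM), which binds and blocks Egfr, and Spry4 (11.8 to 0.226 CPM) were lower, Lrig3 (3.86 to 11.2 CPM) was higher, and 8 lay within 2-fold. Of 6 sheddases and carriers, Adam9 (60.5 to 25.2 CPM) and Adam12 (1.61 to 0.0122 CPM) were lower, and none of the 6 adaptors passed the 2-fold mark. Adam12 in CO epithelial cells was 0.839% of its CO stromal level of 192 CPM, within the range of the 6 stromal markers (0.368% to 5.49%), so that expression by epithelial cells and free RNA from stroma cannot be told apart for it. In mesothelial cells 9 of 11 MAP kinase targets with enough UMIs were lower, beside 5.21% of all genes. In lymphocytes 3 of 8 were, beside 3.55% of all genes, and Fos and Egr1 stood at 527 and 207 CPM in CO and at 334 and 82.6 CPM in DES. In myeloid cells 3 of 9 were, beside 11.8% of all genes, and Fos and Egr1 stood at 1232 and 613 CPM in CO and at 2285 and 631 CPM in DES. Early response genes are also known to rise while tissue is dissociated, and the part of dissociation in the Hbegf difference was not tested.

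Over the 15 groups of cell type and library with at least 50 cells, leaving out the DES epithelial cells outside the clusters, the genes with the most similar log levels were ranked by Pearson correlation among 12406 genes. The closest to Hbegf was Pik3c2a (0.917), to Areg Klrb1b (0.967), to Nrg1 P2ry1 (0.853), to Egfr Plagl1 (0.941), to Erbb2 Mycn (0.978), to Erbb3 Fabp6 (0.933), to Btc Tfcp2l1 (0.934) and to Tgfa Mbtps2 (0.910). These are descriptions over 15 points that share 2 libraries.

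In the whole sections, which were not dissociated, neither Hbegf nor Tgfa followed the single-cell pattern, and Tgfa was the member called between treatments. A section holds many cell types, so fewer cells of a type and less RNA per cell cannot be told apart. Summed epithelial markers were at 3194 and 2214 CPM in CO A and CO B and at 3490 and 3712 CPM in DES A and DES B. Basal markers went from 3.92 and 169 CPM to 9769 and 5820 CPM, stromal markers from 2915 and 2931 to 1359 and 968 CPM, and muscle markers from 9030 and 9845 to 1827 and 2017 CPM. The part of these shifts in the values below was not tested.

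Tgfa, the ligand transforming growth factor alpha, was at 6.24 and 5.98 CPM in CO A and CO B and at 16.2 and 19.4 CPM in DES A and DES B. Both DES sections lay above both CO sections. Means were 6.11 ± 0.180 CPM (SD, n = 2) in CO and 17.8 ± 2.26 CPM (SD, n = 2) in DES, and the fitted difference was 1.34 ± 0.24 on the log2 scale (SE), 2.53-fold, with an adjusted p of 0.04998 in edgeR's quasi-likelihood test over 14098 genes. No other of the 7 members tested passed 0.05, where 2.67% of all genes tested were called higher in DES and 2.63% lower. The direction was opposite to that in single cells, where the ratio of DES to CO was 0.817 in non-basal epithelial and 0.806 [0.660, 0.982] in mesothelial cells. The adjusted p was 0.242 without DES A, 0.390 without DES B and 0.0867 with the section letter as a replicate block. The difference itself stayed between 1.15 and 1.48 with each section left out, and without DES A or DES B only 14 and 3 of all genes were called.

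Egfr was at 22.1 and 31.5 CPM in CO and 49.2 and 48.2 CPM in DES sections, and both DES sections were above both CO sections. Its difference of 0.66 ± 0.21 (log2) had an adjusted p of 0.150 in the edgeR fit. Nrg1 was at 16.1 and 10.1 CPM in CO and at 7.90 and 7.29 CPM in DES, again without overlap, with a fitted ratio of DES to CO of 0.501 and an adjusted p of 0.147 (edgeR). Without CO B, the section with the fold, the fitted differences were 0.91 for Egfr and -1.32 for Nrg1. Without CO A they were 0.44 and -0.59. Btc was at 2.96 and 2.36 CPM in CO and 4.39 and 5.36 CPM in DES (0.67 on the log2 scale, edgeR adjusted p 0.339).

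Hbegf was at 10.8 and 9.70 CPM in CO and 13.7 and 9.21 CPM in DES sections, and the groups overlapped. Its fitted difference was -0.05 ± 0.27, with an adjusted p of 0.934 (edgeR), against the 12.2-fold difference between libraries of dissociated epithelial cells. The immediate early genes Fos and Egr1 were measured in the same sections, with Fos at 60.9 and 10.2 CPM in CO and 19.9 and 16.9 CPM in DES, and Egr1 at 8.64 and 11.2 CPM in CO and 15.9 and 8.60 CPM in DES, so that the groups overlapped for both. Sections and libraries came from different mice and methods, which cannot be told apart here.

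Erbb2 was at 63.6, 110, 114 and 112 CPM and Erbb3 at 32.5, 69.5, 63.7 and 67.1 CPM in CO A, CO B, DES A and DES B, so that CO A stood apart from the other 3 sections. Their edgeR adjusted p-values were 0.760 and 0.840. Without CO B the fitted differences were 0.59 for Erbb2 and 0.77 for Erbb3, and without CO A they were -0.15 and -0.27. Egf had 3, 8, 7 and 9 UMIs, Areg 3, 0, 1 and 3 UMIs and Ereg 1, 0, 0 and 0 UMIs in the same order, too few for the test, and a count of 0 in CO B allows up to 0.334 CPM by its exact Poisson interval. Of the other family genes, Nrg4 was at 1.44 and 11.7 CPM in CO and at 0.987 and 0.709 CPM in DES sections. Its direction was opposite to that in epithelial cells and leaned on CO B, which stood apart from the other 3 sections. Gland markers were at 31.7 and 129 CPM in CO and at 48.3 and 53.1 CPM in DES, and their part in this was not tested. Nrg2 was at 5.44 and 7.07 CPM in CO and 2.41 and 2.33 CPM in DES. Neither Nrg4 nor Nrg2 was called by edgeR (adjusted p 0.169 and 0.0652), and both were lower in DES by DESeq2 (adjusted p 0.0191 and 0.0305). Of the pathway lists, 1 gene was called in whole sections by edgeR, Ier3, at -2.08 (adjusted p 0.0219, edgeR), out of 36 genes tested. DESeq2 also called Adam12 lower in whole sections (-2.02, adjusted p 0.000291) and, in epithelium-rich spots, Adam12 (-2.06, 0.00892) and Lrig1 (-1.15, 0.0304), where the edgeR adjusted p-values were 0.0662, 0.0501 and 0.0740. Ier3, an early response gene of the MAP kinase list, was at 327 and 246 CPM in CO and at 85.7 and 72.1 CPM in DES sections, and it was the only list gene called in stromal spots (-2.05, adjusted p 0.0378) and in epithelium-rich spots (-2.40, 0.0116) by edgeR as well.

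**Figure D3:**
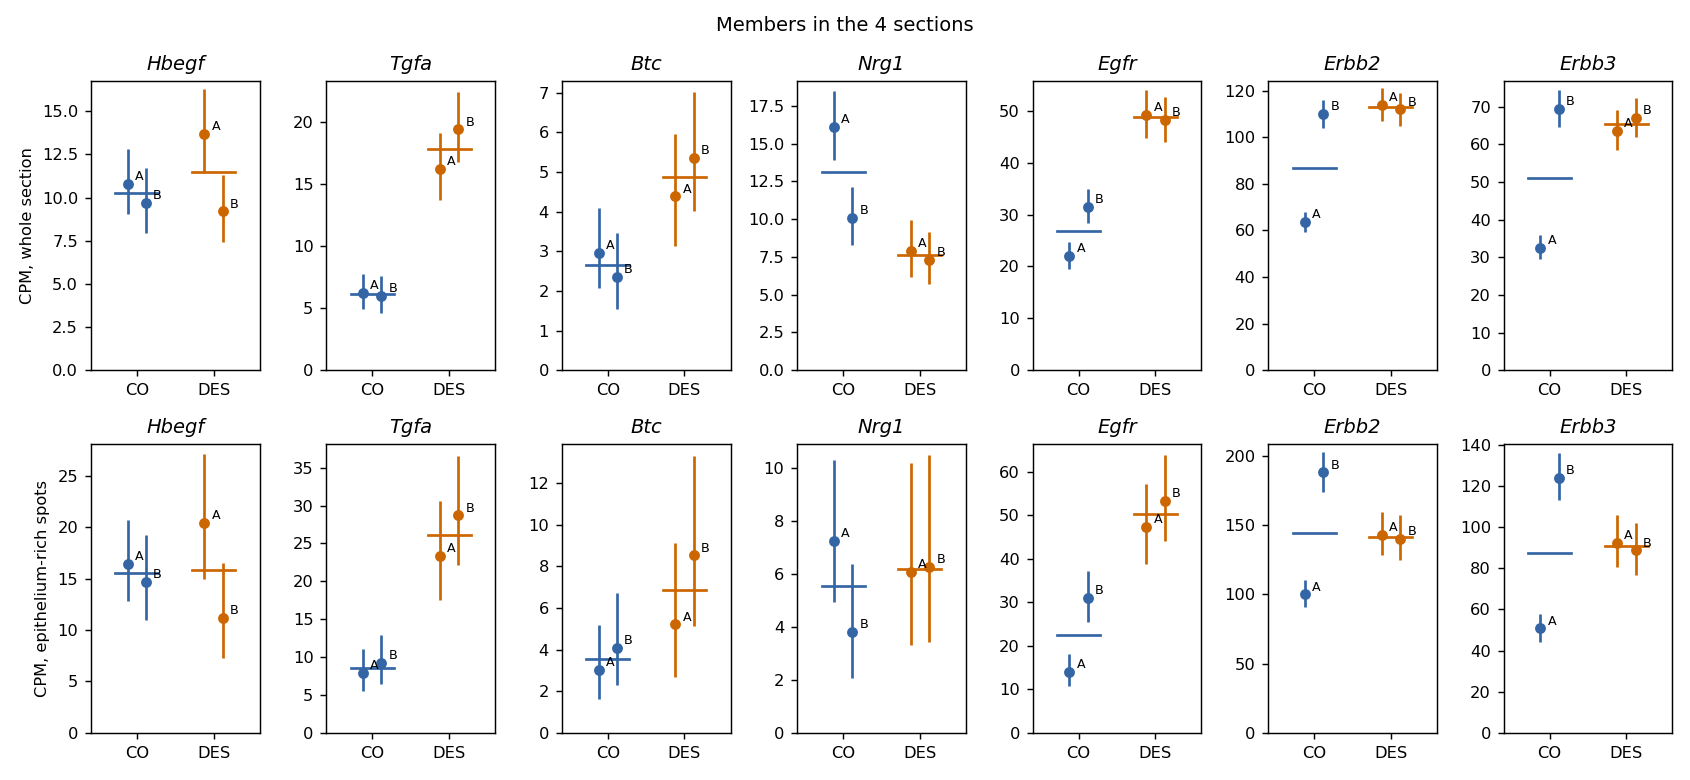
Level in CPM of the 7 members that could be tested, in whole sections and in epithelium-rich spots, with a point for each section and its exact Poisson 95% interval, CO beside DES, and a bar at the group mean. Both DES sections lie above both CO sections for Tgfa (16.2 and 19.4 against 6.24 and 5.98 CPM in whole sections) and for Egfr, and the groups overlap for Hbegf.

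Spots rich in epithelium were the top 20% of each section by 7 epithelial markers, none of them a member. In these spots Tgfa was at 7.96 and 9.26 CPM in CO and 23.4 and 28.7 CPM in DES, and Egfr at 31.0 CPM in CO B and 47.3 and 53.3 CPM in DES, without overlap in either. Egfr in CO A had 60 UMIs in these spots, a level between 10.7 and 18.1 CPM by its interval. The differences were 1.29 ± 0.29 (edgeR adjusted p 0.0575) and 0.86 ± 0.39 (0.232). Hbegf was at 16.4, 14.7, 20.4 and 11.2 CPM in CO A, CO B, DES A and DES B, and the groups overlapped here as well. None of the 7 members tested passed by edgeR or DESeq2, 1 had an unadjusted p under 0.05, and 7.45% of 11733 genes were called. With a section left out, the Tgfa difference stayed between 1.11 and 1.46. That of Egfr was 1.51 without CO B and 0.41 without CO A. Without CO A the differences were -0.70 for Erbb2 and -0.74 for Erbb3, and they reached 0.17 and 0.51 with another section left out. Basal markers in these spots were at 6.55 and 185 CPM in CO and 9695 and 6832 CPM in DES. Ratios of basal to non-basal DES cells, given above, were 5.73 for Egfr and 0.948 for Tgfa. The part of basal cells in the differences between treatments was not tested.

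Stromal spots were those of the cluster that the study named stromal in each section. Nrg1, the stromal ligand of the single-cell data, was at 57.3 [39.2, 80.9] and 21.7 [13.2, 33.5] CPM in CO A and CO B, and at 20.7 [12.8, 31.6] and 17.3 [6.36, 37.7] CPM in DES A and DES B. CO A was high, and CO B lay within the intervals of the DES sections. The difference was -1.02 ± 0.54 with an edgeR adjusted p of 0.473, and without CO A it was -0.26. None of the 4 members that could be tested passed, by edgeR, DESeq2 or an unadjusted p under 0.05, where 1.47% of 8914 genes were called. In DES B, 68 of the 132 stromal spots were also among the 20% richest in muscle markers. Stromal markers in these spots summed to 5857 and 4446 CPM in CO and 3393 and 2581 CPM in DES, and basal markers to 0 and 95.4 CPM in CO and 7224 and 2050 CPM in DES, and the part of these shifts in the Nrg1 difference was not tested.

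Epithelium-rich and other spots of the same sections were then compared, with the section as a block. Hbegf (0.83 ± 0.17, adjusted p 0.00200), Tgfa (0.79 ± 0.17, 0.00290), Erbb2 (0.86 ± 0.09, 1.30e-05) and Erbb3 (1.01 ± 0.10, 1.31e-05) were higher in epithelium-rich spots by edgeR. Nrg1 was lower (edgeR adjusted p 0.00162), with ratios of rich to other spots of 0.289 to 0.828 over the 4 sections. These were 5 of 7 members, where 22.3% of 13677 genes were called higher and 23.0% lower. Of the pathway lists, 5 of 6 sheddases and carriers were higher and 1 was lower in epithelium-rich spots, and 3 of 10 MAP kinase targets tested were higher, Dusp6 (0.86 ± 0.10, edgeR adjusted p 2.84e-05) and Ier3 (1.03 ± 0.09, 4.90e-06) among them. Of 11 feedback inhibitors 2 were higher and 1 was lower, and of 6 adaptors 1 was higher and 2 were lower. Hbegf missed the threshold without DES A, at 0.0585, and the other 4 passed with each section left out. Egfr lay near 0, at -0.19 (0.290), with ratios of rich to other spots of 0.535 in CO A, 0.976 in CO B and 0.948 in DES A, and a ratio above 1 in DES B (interval 0.921 to 1.41).

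The enrichment of Erbb2 and Erbb3 in epithelium-rich spots was smaller in DES than in CO sections. For Erbb2 the ratio of rich to other spots was 2.25 and 2.65 in CO and 1.37 and 1.36 in DES, and for Erbb3 2.20 and 2.95 in CO and 1.71 and 1.46 in DES. The difference of enrichments was -0.96 ± 0.17 for Erbb2 (adjusted p 0.00454) and -0.83 ± 0.20 for Erbb3 (0.0202) in the edgeR fit, where 7.52% of genes were called lower and 7.47% higher. Without DES A or DES B both lost the call, at 0.110 and 0.169 for Erbb2 and 0.144 and 0.355 for Erbb3 (edgeR), and Erbb3 also lost it in the DESeq2 Wald test (0.183). The differences themselves stayed between -1.06 and -0.86 for Erbb2 and between -1.01 and -0.62 for Erbb3 with each section left out. The level in epithelium-rich spots was 100 and 188 CPM in CO and 143 and 140 CPM in DES for Erbb2, while in the other spots it was 44.6 and 71.1 CPM in CO and 104 CPM in both DES sections. The other spots of the DES sections also held more epithelial marker UMIs, with medians of 23.3 and 26.9 per 10000 UMIs against 14.9 and 7.72 in CO, and the part of this in the difference was not tested. For Nrg1 the ratios were 0.351 and 0.289 in CO and 0.714 and 0.828 in DES, and the difference of 1.11 ± 0.41 had an edgeR adjusted p of 0.0928.

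**Figure D4:**
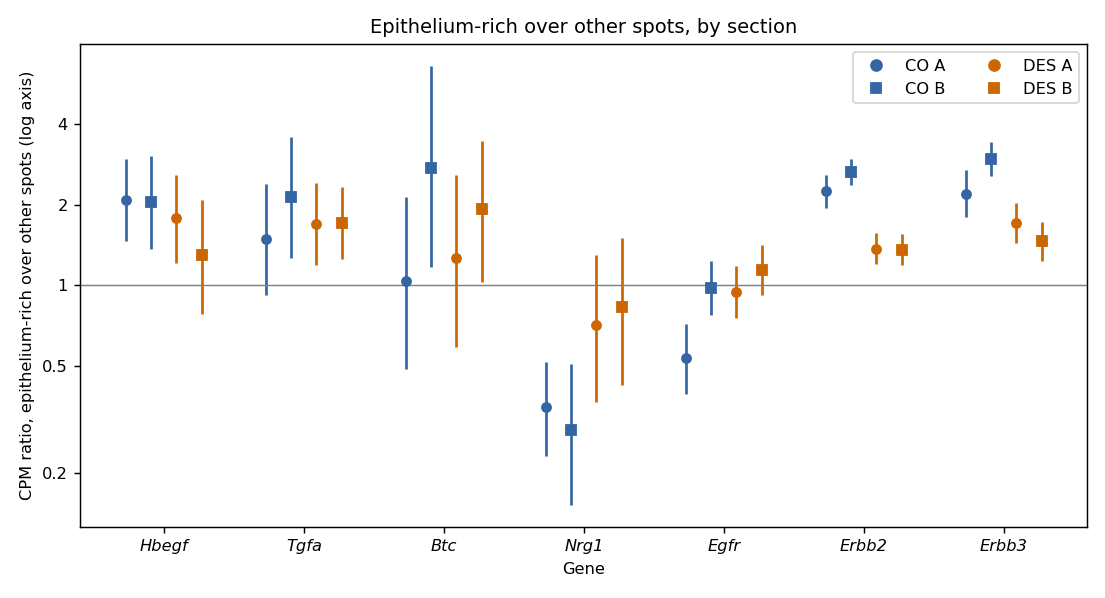
Ratio of the CPM of epithelium-rich spots to that of the other spots of the same section, on a log axis, for the 7 members tested, with a point for each of the 4 sections. Erbb2 and Erbb3 lie nearer to 1 in the DES sections (1.37 and 1.36, 1.71 and 1.46) than in the CO sections (2.25 and 2.65, 2.20 and 2.95). Nrg1 lies below 1 in all 4, and its counting interval holds 1 in both DES sections.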

How the data were processed

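The deposited values are UMI counts without normalization, which the authors made on mm10 with Cell Ranger 3.0.1 for cells and Space Ranger 1.2.2 for spots. Doublets had been removed (scran) and barcode swapping examined (DropletUtils). The authors also named cell types, epithelial clusters and spot clusters, which were used as given. Library preparation read the 3′ end of transcripts, and cells had been released with trypsin in part at 37 °C. For 350 cells of the metadata no counts were held. The members and gene lists were chosen with earlier results of these data known.

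UMIs were summed over the cells or spots of a group. Shares of cells were taken after thinning to 3000 UMIs (seed 20230), leaving out shallower cells. A gene counted as different between libraries at a ratio of at least 2 or at most 0.5, with at least 50 UMIs over both. Section sums were fitted with edgeR 4.0.16 (TMM factors, filterByExpr, quasi-likelihood test, Benjamini-Hochberg adjustment at 0.05). With 2 sections against 2, no exact permutation test can pass 0.05, so p-values rest on the spread pooled over genes. TMM moved the median log2 difference of all genes from 0.22 to -0.01 in whole sections and from 0.31 to -0.02 in epithelium-rich spots. On simulated counts with 200 changed genes the fit recovered 7.22% of 2-fold and 84.8% of 4-fold changes in whole sections. Alternatives were DESeq2 1.42.0, its size factors, no filter, a block by section letter, leaving out each section, and the top 10% or 30% of spots; for cells, a quality filter, other sets of epithelial cells, means per 10000 UMIs, totals without the 20 most abundant genes and other thinnings. All members were named, while of the list genes that passed not all were named. Gene positions came from GENCODE M21 and start sites from RefSeq GRCm38.p6.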

Additional observations from a re-analysis of the deposited data

Results flagged for a closer look

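The epithelial enrichment differed between DES and CO sections, by the test of the difference itself, for Erbb2 (-0.96 on the log2 scale) and Erbb3 (-0.83), and for 6 genes of the pathway lists. These were the sheddase carrier Rhbdf2 (-0.94), the feedback inhibitors Lrig1 (-1.02), Spred2 (-0.99) and Errfi1 (0.69), and the MAP kinase targets Dusp6 (-1.20) and Ier3 (-0.75). In 7 of these 8 genes the enrichment was smaller in DES. For Errfi1 the ratio of rich to other spots was below 1 in CO (0.662 and 0.698) and above 1 in DES (1.24 and 1.13, the latter with an interval of 0.915 to 1.40). These were 8 of the 42 member and list genes tested, 19.0%, beside 15.0% of all genes. By DESeq2 only Erbb2 and Dusp6 kept an adjusted p under 0.05 (0.0269 and 0.0111), and those of the other 6 were 0.0585 to 0.231.

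Cells without a cell type, 20134 in CO and 6611 in DES with median UMIs of 4137.5 and 2178, were outside the comparisons between cell types. In them 4 members were higher in DES beyond the counting intervals, Egf at 1.205 CPM (CO 0.672), Btc at 7.06 CPM (CO 3.98), Erbb2 at 29.997 CPM (CO 19.1) and Erbb3 at 30.2 CPM (CO 20.6). Another 3 were lower in DES beyond the intervals, Nrg1 at 1.30 CPM (CO 13.4), Hbegf at 25.1 CPM (CO 98.0) and Areg at 1.84 CPM (CO 3.29). By the same rule 36.1% of 15404 genes were higher and 29.5% lower.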

How the results depend on the processing

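The number of genes called moved with the tool and with single sections. For whole sections it was 747, 1791 by DESeq2 and 3 to 2819 with each section left out. For stromal spots it was 131, 714 without the filter, 453 with the section letter as a replicate block and 40 to 357 with each section left out. For epithelium-rich spots it was 874 and 0 to 3213 with each section left out, where 0 is without DES B (edgeR, 1409 genes at an unadjusted p under 0.05). For rich against other spots it was 6192, 3947 by DESeq2, 2816 with no replicate block and 3713 to 7040 with each section left out. For the difference of enrichments it was 2050, 867 by DESeq2, 997 with the top 10% of spots and 296 to 3920 with each section left out. Where an arm was left with 1 section, it was assumed to vary like the other.

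With the replicate block the counts were 527 for whole sections and 651 for epithelium-rich spots, and Tgfa was the only member to lose its call. Over 14098 genes, the correlation of CO A minus CO B with DES A minus DES B was -0.03. With 1 pair per letter, an effect shared by same-letter sections on some genes was not tested. Erbb3 lost its difference of enrichments also with the top 10% of spots (0.116). Without CO B the Egfr enrichment was -0.42 and its difference between treatments 0.82, and without CO A the Btc enrichment was 1.04. Over all settings the adjusted p ranged from 0.00689 to 0.390 for Tgfa in whole sections.

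Members at least 2-fold apart in non-basal epithelium numbered 4 in every setting, and member levels of at least 10 CPM 46 to 50 of 150. The count of members does not show whether each ratio kept its size, and some ratios moved with other sets of epithelial cells. Shares of at least 5% of cells were 27 of 150, 41 at 5000 UMIs and 60 without thinning, since deeper cells show more genes. Directions turned for Nrg1 with every epithelial cell (3.95) and the Btc difference of enrichments with the top 30% of spots (0.18). With a section left out, directions turned 16 times, none of them a call, within ranges of -0.34 to 0.16 (Hbegf), -0.15 to 0.59 (Erbb2) and -0.27 to 0.77 (Erbb3) in whole sections. In stromal spots they were -0.16 to 0.62 (Egfr), -1.68 to 0.06 (Erbb2) and -1.96 to 0.26 (Erbb3). In epithelium-rich spots they were -0.75 to 0.06 (Hbegf), -0.56 to 0.41 (Nrg1), -0.70 to 0.17 (Erbb2) and -0.74 to 0.51 (Erbb3). For rich against other spots the range was -0.42 to 0.00 (Egfr), and for the difference of enrichments -0.01 to 0.82 (Egfr), -0.42 to 0.06 (Tgfa) and -0.87 to 0.47 (Btc). Leaving out the cells highest for Areg or Hbegf, and wider sets of basal cells, were chosen after seeing the data. The cause was not tested.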
